A study of Mus musculus with 8 samples.

Results

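Cholesterol and fatty acid synthesis was followed here through 34 listed genes: the enzymes of both pathways, the proteins that switch them on and the pumps that carry sterol out of the cell. Probe sets were chosen by gene symbol, with 1 probe set a gene (the one with the highest mean level over all arrays). No measured difference between groups entered this choice of probe set. The 34 genes themselves were listed with earlier results of these data known, so their counts are not an independent test. Of the 34 genes, 33 had a named probe set, and all 33 were bright enough to be tested among 12520 genes. Acat2 was not analysed here.

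The RNA came from cultured CD8 T cells of C57BL/6 mice, the T cells that become killer cells. They were picked from spleens with magnetic beads (positive selection) and kept for 18 h with antigen-presenting dendritic cells derived from bone marrow, 10 T cells to 1 dendritic cell. Dendritic cells were then taken out by way of CD11c on their surface. Wild-type cells that met dendritic cells without added peptide form the group called WT non-pulsed (WT - UN in the labels). Wild-type cells that met dendritic cells loaded with N4, a peptide of ovalbumin, form the group WT N4. Cells without PKC theta, a kinase between the antigen receptor and the transcription factor NF-kB, form the group PKCθ KO N4. Cells without the NF-kB proteins p50 and cRel form the group p50 cRel DKO N4. Neither knockout was cultured without peptide, so a peptide effect within a knockout cannot be measured here. Each group had 2 arrays. The labels give no age, antigen receptor or number of animals and do not say whether arrays came from separate cultures. Titles of the second arrays add Erep 2, which is not explained. The p-values cover the spread between samples that may be technical repeats, except the WT non-pulsed pair, which differed in Xist (below).

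Cholesterol is built from acetyl-CoA through mevalonate, isoprenoid diphosphates, squalene and lanosterol, and fatty acids from the same acetyl-CoA through malonyl-CoA. When sterol in the endoplasmic reticulum is low, the carrier protein Scap brings the membrane-bound transcription factors SREBP1 and SREBP2 (Srebf1 and Srebf2) to the Golgi, where they are cut and freed to switch on these enzymes, and Insig1 holds Scap back when sterol is plentiful. Sterol excess instead activates the nuclear receptor LXR, which raises the efflux pumps Abca1 and Abcg1. T cells that have met antigen are known to raise lipid synthesis through SREBP as they grow and divide.

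Levels are log2(signal + 16), with the MAS5 signal that the authors deposited, and a difference on this scale understates the change of a dim gene. Median signals of the arrays ranged from 33.6 to 70.3, and all arrays had a 2% trimmed mean of 500. CD8 T cell markers were bright on every array, with a lowest signal of 830. Rel, which encodes cRel, read 9.82 and 9.53 on the WT N4 arrays and 6.19 and 5.92 in p50 cRel DKO N4. Prkcq, which encodes PKC theta, read 11.74 and 11.35 in WT N4 and 11.00 and 10.75 in PKCθ KO N4, a difference of -0.66 (SE 0.21) that did not pass (limma adjusted p = 1) and, without the position of its probes relative to the deletion, does not check the label. The gene of p50, Nfkb1, was not analysed here. Eif2s3y, on the Y chromosome, ranged from 10.65 to 11.20 in the wild-type groups and from 5.42 to 6.73 in the knockout groups. Between wild-type and knockout groups, genotype and this sex-linked difference cannot be told apart, for any gene on any chromosome. Xist, from the inactive X chromosome, read 12.27 to 12.57 in the knockout groups and 5.18 and 6.65 in WT N4. On the WT non-pulsed arrays it read 6.05 and 11.84, so these arrays differed from each other and were not repeats of the same RNA sample. Nsdhl and Ebp among the 34 genes are X-linked, as are some genes of the other lists, such as Mbtps2, but the limit is not confined to them.

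In wild-type cells, N4 was followed by higher levels of some genes of sterol synthesis, 2 of 6 in the mevalonate arm and 4 of 10 in the sterol arm, and by lower levels of both efflux pumps. Idi1 and Fdps of the mevalonate arm rose, as did Fdft1, Lss, Cyp51 and Sc5d of the sterol arm, the SREBP escort Scap, the sterol carrier Stard4, the fatty acid enzyme Acaca and the desaturase Scd2. The desaturase Scd1 and the pumps Abca1 and Abcg1 fell. In all, 13 of 33 genes passed (39.4%; limma with Benjamini-Hochberg adjusted p under 0.05), against 40.7% of all genes. The share that passed was near that of all genes. By direction, 10 of the 33 rose, against 17.2% of all genes, and 3 fell, against 23.5%. The median difference was 0.47 over the 33 genes and -0.10 over all genes. The arrays' scaling moves the second value: it was 0.09 after quantile normalization and 0.30 after median centring, where the median of the 33 genes was 0.45 and 0.87. The share of all changed genes that were higher was 42.3%, and with quantile or median scaling it was 52.6% or 61.1%. The 13 directions were the same under each of these scalings. In such cultures, more cells of a type and more RNA per cell cannot be told apart.

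**Figure D1:**
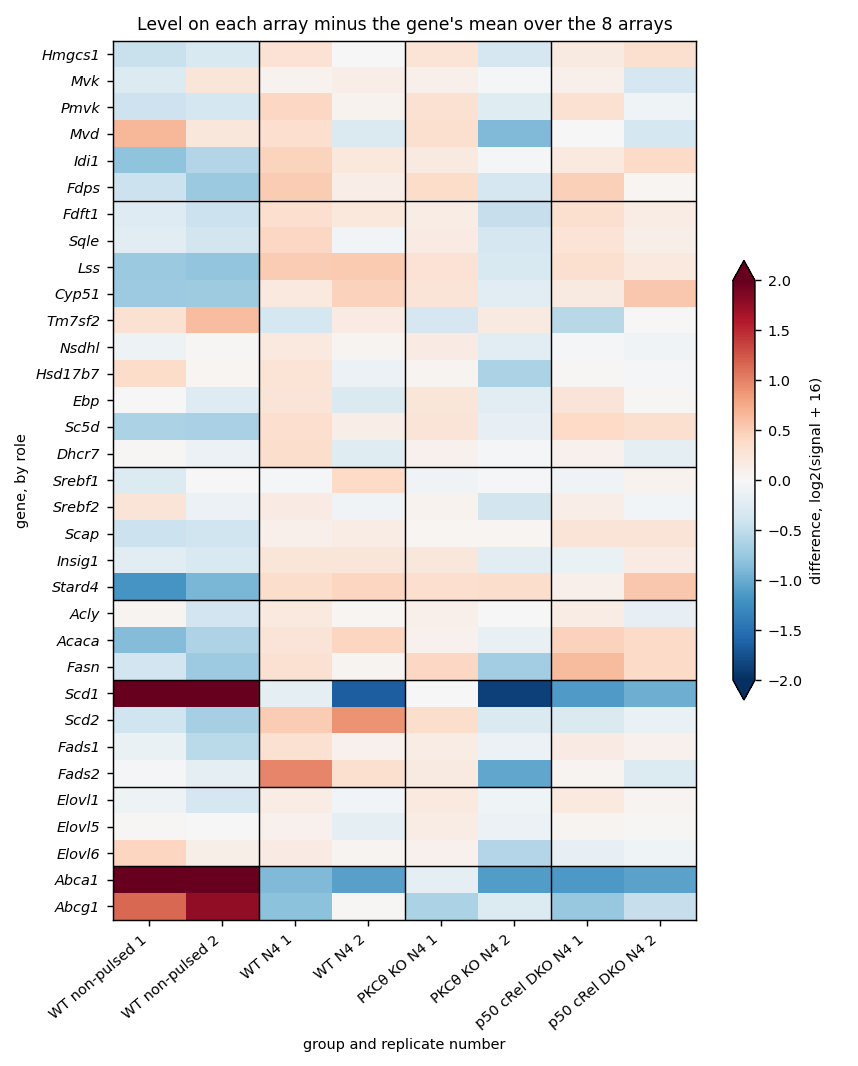
Level of each of 33 genes (rows, grouped by role) on each of 8 arrays (columns), as the difference in log2(signal + 16) from that gene's mean over the arrays, with colours that stop at 2 and -2. The WT non-pulsed columns are blue for most sterol enzymes and dark red for Scd1, Abca1 and Abcg1, and the second PKCθ KO N4 column is the lowest of the N4 columns for 21 of 33 rows.

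The mevalonate arm turns acetyl-CoA into the isoprenoid building blocks. Of its 6 tested genes 2 rose and 0 fell, beside 17.2% of all genes higher and 23.5% lower. The median difference was 0.57. Idi1, which isomerises the basic isoprenoid unit, read 11.63 and 11.85 on the WT non-pulsed arrays and 12.89 and 12.65 on the WT N4 arrays. Both N4 arrays lay above both controls, by 1.03 on average (SE 0.15, limma adjusted p = 0.000855). Fdps, which joins these units to farnesyl diphosphate, read 11.05 and 10.73 without peptide and 11.98 and 11.61 with it. The groups did not overlap, and Fdps rose by 0.91 (SE 0.26, limma adjusted p = 0.022), a call that was lost without WT non-pulsed replicate 2 or without WT N4 replicate 1 (highest limma adjusted p = 0.124). Hmgcs1, which makes the precursor HMG-CoA, read 12.10 and 12.24 without peptide and 12.83 and 12.55 with it. Its groups did not overlap either, but the difference of 0.52 (SE 0.20) missed the threshold (limma adjusted p = 0.0669). With 2 arrays a group, groups can lie apart by chance, and the share of all genes that do so is not given. Remarks on overlap, here and below, only describe the values. The kinase Pmvk was similar, with 9.01 and 9.07 against 9.83 and 9.49 (0.63, limma adjusted p = 0.0646). The kinase Mvk (0.12) and the decarboxylase Mvd (-0.42), which act before and after Pmvk, had groups that overlapped.

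The sterol arm runs from squalene to cholesterol. Of its 10 genes 4 rose and 0 fell, beside 17.2% of all genes higher and 23.5% lower. The median difference was 0.32. Fdft1, squalene synthase and the first committed step, read 10.41 and 10.24 without peptide and 11.01 and 10.88 with N4. It rose by 0.62 (SE 0.21, limma adjusted p = 0.0413), the weakest of the calls, which held under 8 of 18 alternative settings and was lost when any single WT or p50 cRel DKO N4 array was left out (limma adjusted p between 0.00664 and 0.362 over the 18). Lss, which folds squalene epoxide into lanosterol, read 8.99 and 8.95 without peptide and 10.24 and 10.26 with it. The 2 arrays of each group nearly coincided, and Lss rose by 1.27 (SE 0.20, limma adjusted p = 0.00136), or 2.42-fold. Both of its further probe sets, which were dimmer, were higher by less (0.41 and 0.78). Cyp51, the lanosterol demethylase, read 10.13 and 10.15 against 11.06 and 11.33 and rose by 1.05 (SE 0.20, limma adjusted p = 0.00335).

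Sc5d, the desaturase that acts near the end of the arm, read 10.30 and 10.28 without peptide and 11.26 and 11.06 with N4. It rose by 0.87 (SE 0.17, limma adjusted p = 0.00347). Its dimmer second probe set read 8.15 and 7.75 against 7.91 and 7.71, with groups that overlapped and a difference of -0.14, and the call was lost when the probe sets of the gene were averaged (0.37, limma adjusted p = 0.166). Between these enzymes lay others that did not pass. Sqle, the squalene epoxidase, read 10.84 and 10.68 against 11.46 and 10.99 (0.47, limma adjusted p = 0.119). Differences for the sterol reductases and demethylation enzymes Dhcr7 (0.10), Nsdhl (0.17), Hsd17b7 (-0.13) and Tm7sf2 (-0.56) and for the isomerase Ebp (0.11) had limma adjusted p-values from 0.201 to 0.766. So Fdft1, Lss, Cyp51 and Sc5d passed, while Sqle, between Fdft1 and Lss, and these 5 genes of ring demethylation, isomerisation and reduction did not.

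The letters in front of some of these genes are shown because the enzymes of these pathways, risen or not, share regulators in textbook accounts. In those accounts SREBP works on promoters next to NF-Y, which binds CCAAT boxes. RefSeq promoter windows (assembly GRCm38.p6) matched 26 of the 34 genes with 33 windows, and the 250 bases before each start were searched on both strands. The windows of the 4 genes that rose with N4 and hold a CCAAT box (CCAAT or, on the other strand, ATTGG) are printed 5′ to 3′ along the gene, followed by that of Hmgcs1, the single gene of the 26 with TCACNCCAC, a core of the sterol response element. Capitals mark these boxes and that core.
Idi1, chr13:8885356-8885605, plus strand: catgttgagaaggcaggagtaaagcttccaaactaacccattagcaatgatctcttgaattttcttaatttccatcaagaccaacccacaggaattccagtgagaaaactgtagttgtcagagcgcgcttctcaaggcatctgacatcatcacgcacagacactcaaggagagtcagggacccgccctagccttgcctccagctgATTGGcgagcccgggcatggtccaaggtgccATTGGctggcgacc
Lss, chr10:76531355-76531604, plus strand: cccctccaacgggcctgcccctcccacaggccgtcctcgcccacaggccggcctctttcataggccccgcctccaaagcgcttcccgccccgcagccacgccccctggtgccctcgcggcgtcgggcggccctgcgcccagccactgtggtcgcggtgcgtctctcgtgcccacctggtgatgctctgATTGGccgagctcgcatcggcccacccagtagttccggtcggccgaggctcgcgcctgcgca
Cyp51, chr5:4104698-4104947, minus strand: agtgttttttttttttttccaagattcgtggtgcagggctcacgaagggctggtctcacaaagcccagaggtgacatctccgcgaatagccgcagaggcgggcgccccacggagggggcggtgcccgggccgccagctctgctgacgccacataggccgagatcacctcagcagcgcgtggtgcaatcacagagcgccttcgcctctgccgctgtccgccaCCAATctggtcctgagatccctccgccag
Sc5d, chr9:42264301-42264550, minus strand: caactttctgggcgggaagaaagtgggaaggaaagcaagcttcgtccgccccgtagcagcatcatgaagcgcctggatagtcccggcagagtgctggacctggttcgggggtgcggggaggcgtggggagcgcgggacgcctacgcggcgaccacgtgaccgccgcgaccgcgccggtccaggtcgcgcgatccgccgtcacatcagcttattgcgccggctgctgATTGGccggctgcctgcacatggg
Hmgcs1, chr13:119690101-119690350, plus strand: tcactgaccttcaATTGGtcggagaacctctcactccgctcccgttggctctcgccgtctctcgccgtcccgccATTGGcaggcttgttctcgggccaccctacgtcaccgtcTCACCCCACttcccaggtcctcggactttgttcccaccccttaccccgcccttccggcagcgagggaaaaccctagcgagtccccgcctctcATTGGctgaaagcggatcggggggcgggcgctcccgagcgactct

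The CCAAT box nearest to the start begins 14 bases before it in Idi1, 62 in Lss, 29 in Cyp51, 24 in Sc5d and 45 in Hmgcs1, whose sterol response element core begins 137 bases before the start. A gene with several windows was counted once, with a motif if any of its windows held it. A CCAAT box was found for 19 of 26 genes (73.1%), against 40.2% of 10144 tested genes with a window and 33.8% of all 32851 windows. It was found for 4 of 6 genes that rose with N4, for 15 of 18 that did not pass, and not for Abca1. TCACNCCAC was found for 1 of 26 genes (3.85%), against 1.26% of tested genes and 1.05% of all windows. GGGCGG, the Sp1 box, was found for 21 of 26 genes (80.8%, against 61.7% and 32.7%) and the E-box CACGTG for 7 of 26 (26.9%, against 9.61% and 6.02%). No 2 of these motifs contain one another, though matches may share single bases. These matches describe letters and not bound sites.

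Among the SREBP regulators and the sterol carrier, 2 of 5 rose and 0 fell, beside 17.2% of all genes higher and 23.5% lower. Stard4, which moves cholesterol between membranes, read 9.04 and 9.30 without peptide and 10.56 and 10.65 with N4. This was the largest rise among the 33 genes, 1.44 (SE 0.18, limma adjusted p = 0.000448) or 2.71-fold, and both of its further probe sets were also higher with N4 (0.73 and 1.24). Scap read 10.92 and 10.94 against 11.44 and 11.50. The arrays of each group lay close together, and Scap rose by 0.54 (SE 0.12, limma adjusted p = 0.00738). Insig1, the brake on Scap and itself a target of SREBP, read 10.42 and 10.33 against 10.88 and 10.88. Its groups did not overlap, yet the difference of 0.50 (SE 0.18) missed the threshold (limma adjusted p = 0.0568). The transcription factor genes did not pass: Srebf1 read 10.30 and 10.59 against 10.53 and 10.97 (0.31, SE 0.18, limma adjusted p = 0.223). Srebf2 read 11.20 and 10.82 against 11.11 and 10.87, with a difference of -0.02 (SE 0.20, 95% interval from -0.48 to 0.43, limma adjusted p = 0.944). Transcript levels do not report the cutting of the SREBP proteins, which was not measured.

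**Figure D2:**
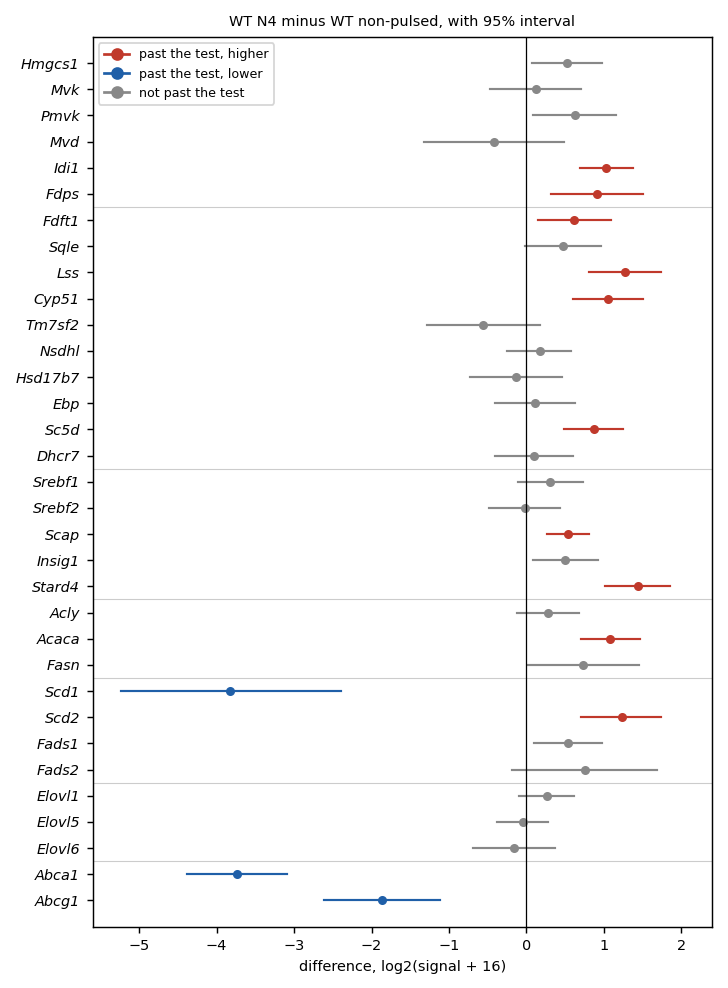
Difference between WT N4 and WT non-pulsed in log2(signal + 16) for each of 33 genes, with its 95% interval from limma; red and blue mark the 10 genes past the test and higher and the 3 past the test and lower. The rises reach 1.44 (Stard4), while Scd1 and Abca1 lie below -3.

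Fatty acid synthesis starts with Acly, which frees acetyl-CoA from citrate, then Acaca, which makes malonyl-CoA, and Fasn, which builds the chain. Of these 3 genes 1 passed, beside 40.7% of all genes. Acaca read 9.45 and 9.70 without peptide and 10.57 and 10.74 with N4. It rose by 1.08 (SE 0.16, limma adjusted p = 0.00109), but its dim second probe set read 5.47 and 5.70 against 4.32 and 6.02, a difference of -0.41, and the mean of its probe sets did not pass (0.33, limma adjusted p = 0.442). Fasn read 11.57 and 11.22 against 12.25 and 12.00. Its groups did not overlap, and the difference of 0.73 (SE 0.31) did not pass (limma adjusted p = 0.0955). Acly read 12.87 and 12.42 against 13.00 and 12.85 (0.28, limma adjusted p = 0.246). Its next brightest probe sets differed by more (0.52 and 0.81) and a dim one past the filter by 0.02. The mean of its probe sets did not pass either.

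The desaturases split. Scd1 and Scd2 encode stearoyl-CoA desaturases, which put the first double bond into a saturated chain. Scd2 read 11.31 and 11.04 without peptide and 12.21 and 12.60 with N4 and rose by 1.23 (SE 0.23, limma adjusted p = 0.00288), and both further probe sets were higher too (1.34 and 0.82). Scd1 moved the other way: it read 12.63 and 11.92 without peptide and 9.19 and 7.72 with it. Its 2 WT N4 arrays differed widely, but both lay far below the controls, and Scd1 fell by 3.82 (SE 0.62, limma adjusted p = 0.00151), 14.1-fold lower. The difference was -3.08 without WT N4 replicate 2 and -4.55 without replicate 1. The second probe set of Scd1 was also lower (-2.12). Fads1 and Fads2, which make polyunsaturated chains, read 9.63 and 9.23 against 10.08 and 9.86 (0.54, limma adjusted p = 0.0536) and 7.03 and 6.88 against 8.03 and 7.37 (0.75, limma adjusted p = 0.189). Neither pair of groups overlapped. The elongases, which lengthen finished chains, did not pass: Elovl1 differed by 0.26, Elovl5 by -0.05 and Elovl6 by -0.16.

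Both efflux pumps fell with N4. Abca1, which loads cholesterol onto lipid-free apolipoprotein, read 11.36 and 11.54 without peptide and 7.82 and 7.61 with it. In linear signal this was 2614 and 2959 against 210 and 180. Abca1 fell by 3.73 (SE 0.28, limma adjusted p = 4.83e-05), 13.3-fold lower, the lowest p among the 33 genes. Abcg1, which passes cholesterol to mature lipoprotein, read 9.68 and 10.31 against 7.72 and 8.56 and fell by 1.86 (SE 0.33, limma adjusted p = 0.00225), 3.63-fold lower. Their further probe sets past the filter were lower too (-1.36 for Abca1 and -1.37 for Abcg1).

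Markers of other cell types moved with these falls. The counts of markers given here stand beside 17.2% of all genes higher and 23.5% lower. Abca1 and Abcg1 are known to be strongly expressed in macrophages too. Of 20 dendritic cell and macrophage markers 17 fell with N4 and 3 did not pass (median -3.78). Their summed linear signal lay between 102913 and 125412 on the WT non-pulsed arrays, 7692 and 18949 in WT N4, 11525 and 15752 in PKCθ KO N4, and 9793 and 10007 in p50 cRel DKO N4. All 13 B cell markers fell as well (median -4.37), from summed signals of 45006 to 64630 without peptide to 916 to 3554 in WT N4, 2327 to 4745 in PKCθ KO N4 and 3692 to 3748 in p50 cRel DKO N4. All 7 tested neutrophil markers fell (median -4.76), from 32499 to 33199 over 9 named markers to 567 to 1925 in WT N4, 613 to 1352 in PKCθ KO N4 and 893 to 1084 in p50 cRel DKO N4. No marker of the 3 lists was at 0 on any array. Of 9 CD8 T cell markers 5 rose (median 0.67), with summed signals of 32799 to 36254 without peptide and 48440 to 50667 in WT N4, 58775 to 59023 in PKCθ KO N4 and 52844 to 65290 in p50 cRel DKO N4. Mean levels in WT non-pulsed and WT N4 were close for Cd3e (12.01 and 11.98), Cd3d (13.31 and 13.21), Cd3g (12.19 and 12.09) and Cd8b1 (12.53 and 12.54). They were further apart for Cd5 (10.35 and 13.25), Zap70 (10.13 and 11.68), Cd8a (11.39 and 12.46), Cd2 (11.13 and 11.87) and Cd247 (11.02 and 11.69). So the sum did not rise through all T cell markers alike. The part of these other cells in the falls, and of the higher summed T cell signal in the rises, was not tested.

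**Figure D3:**
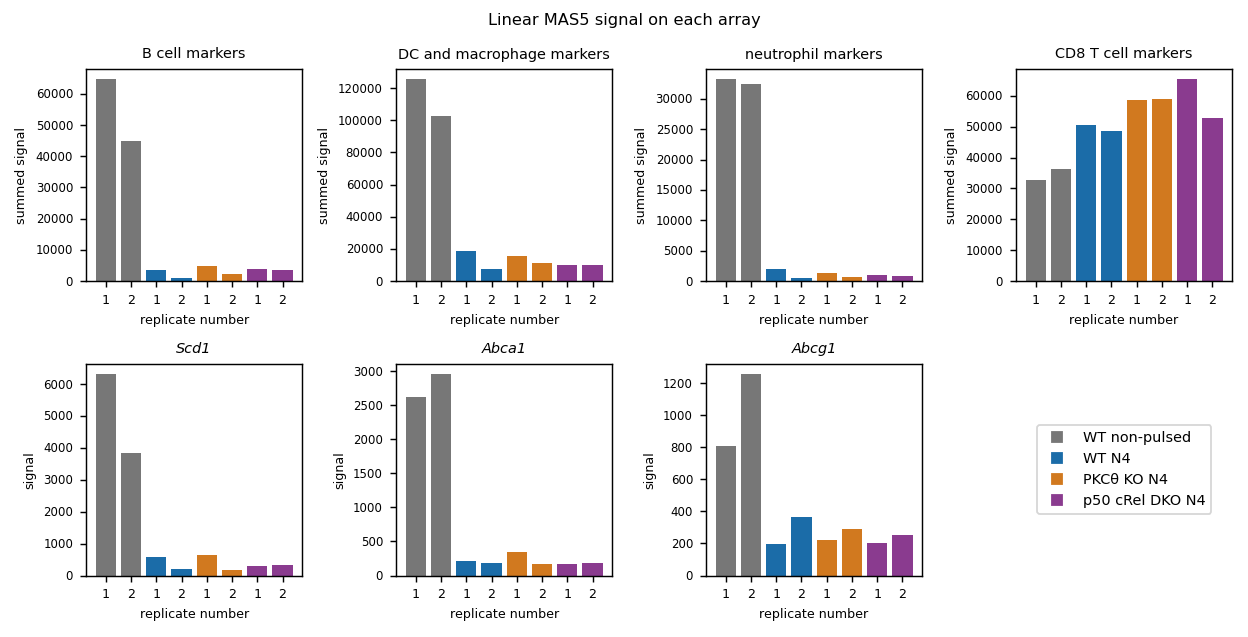
Linear signal on each of 8 arrays (bars, by replicate number and coloured by group), summed over the markers of 4 cell types in the upper panels and for Scd1, Abca1 and Abcg1 in the lower ones, on axes that start at 0. The grey WT non-pulsed bars are the tallest for B cell, dendritic cell and macrophage and neutrophil markers and for the 3 genes, and the lowest for CD8 T cell markers.

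Genes of neighbouring pathways, from lists that hold none of the 34 genes, were read on the same arrays. Their counts stand beside 17.2% of all genes higher and 23.5% lower. Of 16 other sterol genes 2 rose and 5 fell with N4 in wild-type cells (median -0.31). The pair that rose was Erg28, which tethers enzymes of sterol demethylation (0.80, SE 0.16), and Mbtps2, the protease that makes the second of the SREBP cuts (0.66, SE 0.17). Mbtps1, the protease of the first cut, went the other way and was among the 5 that fell (-0.41, SE 0.14, limma adjusted p = 0.0444). The lower ones included Lipa, the lysosomal lipase that frees cholesterol from its esters (-2.53), Nceh1, another cholesteryl ester hydrolase (-0.87), Osbp (-0.63) and Npc2, which passes cholesterol out of lysosomes (-0.49). Of 27 other fatty acid synthesis genes 10 rose and 4 fell (median 0.33). Acsl6, which activates long-chain fatty acids, read 5.21 and 5.43 without peptide and 9.80 and 9.57 with N4 and rose by 4.37 (SE 0.22, limma adjusted p = 1.18e-05). Hacd1, a dehydratase of chain elongation (2.72), the thioesterase Acot7 (1.28) and Slc25a1, the carrier that brings citrate out of mitochondria for Acly (0.86), rose as well. Acss2, which makes acetyl-CoA from acetate, fell by 1.84. Also lower were the malic enzyme Me1 (-1.16), the glucose-sensing factor Mlxip (-1.10) and the phosphatidate phosphatase Lpin1 (-1.40).

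Against the same shares of all genes (17.2% higher, 23.5% lower), 0 of 9 LXR and efflux genes rose and 5 fell (median -0.95). Among the 5 were Smpdl3a (-4.60), Mylip, a ligase that degrades the LDL receptor and is switched on by LXR (-2.53), the transporter Abca7 (-1.81) and the coactivator Ncoa1 (-1.10). Of 22 fatty acid oxidation and lipid uptake genes 2 rose and 4 fell (median -0.10): the HDL receptor Scarb1 (1.00) and the electron carrier Etfa (0.34) were higher. Lipoprotein lipase Lpl (-5.06), the fatty acid receptor Cd36 (-3.76) and the fatty acid carrier Fabp4 (-3.70) were lower, and macrophages express each of these. Cpt1a, which admits fatty acids to mitochondria, was lower as well (-1.56).

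In PKCθ KO N4, 0 of 33 genes passed the test against WT N4 (limma, 0.024% of all genes, or 3 of 12520). The lowest p of those 3 was that of Y-linked Eif2s3y (-4.88, limma adjusted p = 0.00948). Without adjustment 4 of the 33 had p under 0.05, as had 371 of all genes. Of the 33 differences 28 were negative and 5 positive, with a median of -0.19 against -0.02 over all genes. The 95% interval lay within a 2-fold difference for 28 genes, and it reached beyond for Mvd, Fasn, Scd1, Scd2 and Fads2. The lowest p-values were those of Scd2, Fads2, Lss, Acaca and Fdft1, none past the test (limma adjusted p = 1 each). Scd2 read 12.06 and 11.42 in PKCθ KO N4, with WT N4 at 12.21 and 12.60, a difference of -0.67 (SE 0.23, 95% interval from -1.18 to -0.15). Fads2 read 7.23 and 6.01 against 8.03 and 7.37 (-1.08, SE 0.41), and its second bright probe set differed by -1.09. Lss read 10.03 and 9.44 against 10.24 and 10.26 (-0.51, SE 0.20). For all 3 genes both knockout arrays lay below both WT N4 arrays, and replicate 2 lay lowest. The 3 were picked by their p in this same comparison, so this separation adds no support. Acaca read 10.40 and 10.16 against 10.57 and 10.74 (-0.38, SE 0.16), and Fdft1 read 10.83 and 10.21 against 11.01 and 10.88 (-0.43, SE 0.21).

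The balance differed in size between the PKCθ KO N4 arrays. The numbers are not a stated pairing. Between arrays numbered 1, PKCθ KO N4 was below WT N4 for 24 of 33 genes (median -0.06), and between arrays numbered 2 for 29 (median -0.29). PKCθ KO N4 replicate 2 was the lowest of the 6 N4 arrays for 21 of 33 genes, while replicate 1 was the lowest for 2. Within this group 28 of 33 genes were lower in replicate 2, by a median of 0.45, and over all genes the median difference between the arrays was 0.00. The gap was widest for Scd1 (1.88), Fads2 (1.22), Mvd (1.21) and Fasn (1.10). Fasn, for example, read 12.37 in replicate 1 and 11.26 in replicate 2, with WT N4 at 12.25 and 12.00. Replicate 1 was also the higher array for 20 of 33 genes in WT non-pulsed (median 0.09), 23 in WT N4 (0.20) and 21 in p50 cRel DKO N4 (0.07). Without PKCθ KO N4 replicate 2 the median difference from WT N4 was -0.02 over the 33 genes, and without replicate 1 it was -0.41, with 0 genes past the test either way. The summed B cell markers read 4745 in replicate 1 and 2327 in replicate 2, those of dendritic cells and macrophages 15752 and 11525, and those of CD8 T cells 58775 and 59023. Their part in the difference between the arrays was not tested.

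**Figure D4:**
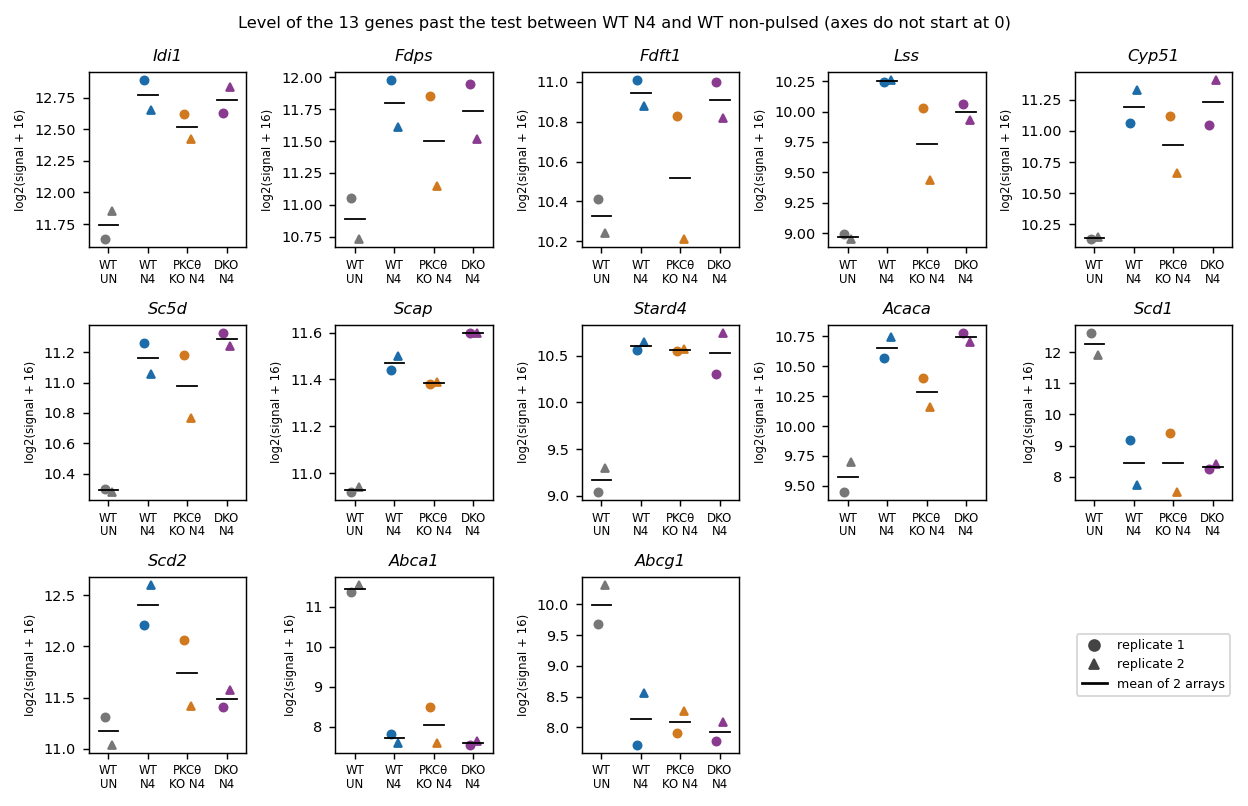
Level in log2(signal + 16) of the 13 genes past the test between WT N4 and WT non-pulsed, in all 4 groups (x axis); circles are replicate 1, triangles replicate 2 and bars the mean of 2 arrays, on axes that do not start at 0. N4 arrays of all genotypes lie on one side of the WT non-pulsed arrays for 12 of the panels, the exception being Fdft1, where PKCθ KO N4 replicate 2 (10.21) lies just below both controls.

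In p50 cRel DKO N4, likewise, 0 of 33 genes passed the test against WT N4. Over all genes 65 of 12520 passed (limma, 0.519%), with 0.248% higher and 0.272% lower. Eif2s3y was among the 65 (-5.35, limma adjusted p = 0.000984). Without adjustment 1 of the 33 had p under 0.05, as had 788 of all genes. The median difference was -0.08 over the 33 genes and 0.00 over all genes, with 23 negative and 10 positive. The 95% interval lay within a 2-fold difference for 28 genes and beyond it for Mvd, Fasn, Scd1, Scd2 and Fads2. The gene with the lowest p was again Scd2, at 11.41 and 11.57 in p50 cRel DKO N4 against 12.21 and 12.60 in WT N4. Both knockout arrays lay below both WT N4 arrays and just above the WT non-pulsed arrays at 11.31 and 11.04, and the difference of -0.91 (SE 0.23, 95% interval from -1.43 to -0.40) did not pass (limma adjusted p = 0.202, between 0.0848 and 0.915 over 18 alternatives). Both further probe sets of Scd2 were lower as well (-0.83 and -0.59). Fads2 read 7.11 and 6.79 against 8.03 and 7.37 (-0.75, SE 0.41, limma adjusted p = 0.981). Insig1 read 10.50 and 10.79 against 10.88 and 10.88 (-0.24, SE 0.18), and Lss read 10.06 and 9.93 against 10.24 and 10.26 (-0.25, SE 0.20). Scap read 11.60 on both arrays against 11.44 and 11.50 (0.13, SE 0.12); none of the 3 passed (limma adjusted p = 1 each).

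Between the knockouts 0 of 33 genes passed (limma, 0.431% of all genes, or 54 of 12520; 0.24% higher and 0.192% lower), and 1 of the 33 had an unadjusted p under 0.05, as had 897 of all genes. The median difference, p50 cRel DKO N4 minus PKCθ KO N4, was 0.11 over the 33 genes and 0.02 over all genes. It was -0.05 without PKCθ KO N4 replicate 2 and 0.36 without replicate 1. Acaca had the lowest p, with 10.78 and 10.70 against 10.40 and 10.16 (0.46, SE 0.16, 95% interval from 0.09 to 0.84, limma adjusted p = 0.547). Its groups did not overlap. Fasn read 12.59 and 12.34 against 12.37 and 11.26 (0.65, SE 0.31, limma adjusted p = 0.761), and Fdft1 read 11.00 and 10.82 against 10.83 and 10.21 (0.39, SE 0.21, limma adjusted p = 0.807), both with overlap. Sc5d read 11.33 and 11.24 against 11.18 and 10.77 (0.31, SE 0.17, limma adjusted p = 0.807), and Scap read 11.60 and 11.60 against 11.38 and 11.39 (0.22, SE 0.12, limma adjusted p = 0.826). The 95% interval reached beyond a 2-fold difference for Mvd, Fasn, Scd1, Fads2 and Abca1 and lay within it for the other 28.

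No regulator or pump passed the test between genotypes with N4. Srebf1 read 10.51 and 10.56 in PKCθ KO N4 and 10.51 and 10.64 in p50 cRel DKO N4, with WT N4 at 10.53 and 10.97, so the differences from WT N4 were -0.21 (95% interval from -0.63 to 0.20) and -0.18 (from -0.60 to 0.24). Srebf2 read 11.01 and 10.58 in PKCθ KO N4 and 11.07 and 10.88 in p50 cRel DKO N4, with WT N4 at 11.11 and 10.87, and differed by -0.19 (from -0.65 to 0.26) and -0.01 (from -0.47 to 0.44). Neither gene passed, and their intervals leave room for differences under 2-fold only. Insig1 read 10.86 and 10.41 in PKCθ KO N4, so replicate 1 stood with WT N4 and replicate 2 with WT non-pulsed (-0.25, from -0.67 to 0.17). Abcg1 read 7.91 and 8.27 in PKCθ KO N4 and 7.78 and 8.08 in p50 cRel DKO N4, within the WT N4 values of 7.72 and 8.56. Scd1 was the least precise gene: it read 9.39 and 7.51 in PKCθ KO N4 and 8.24 and 8.40 in p50 cRel DKO N4, and the SE of its difference from WT N4 was 0.62 in both, with an interval from -1.55 to 1.28 for p50 cRel DKO N4.

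**Figure D5:**
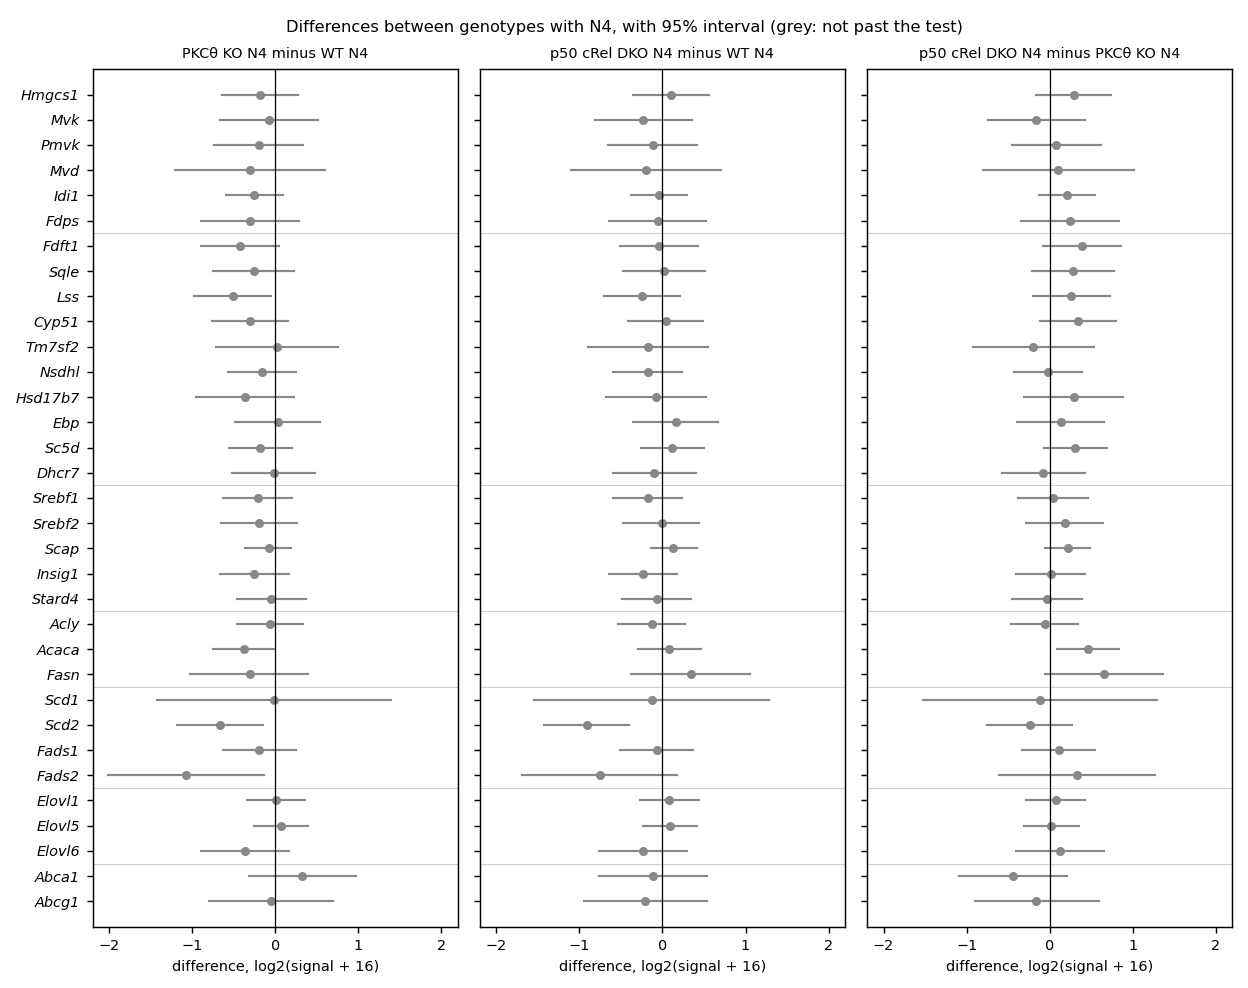
Differences between genotypes in log2(signal + 16) for each of 33 genes (points) with 95% intervals from limma (lines), for PKCθ KO N4 minus WT N4, p50 cRel DKO N4 minus WT N4, and p50 cRel DKO N4 minus PKCθ KO N4. None of the points passed the test; in the left panel 28 of 33 lie below 0, and Scd2 lies at -0.67 and -0.91 in the left and middle panels.

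The levels that the knockout cultures reached were set against WT non-pulsed, a comparison in which genotype and peptide both differ and which shares its controls with the one in wild-type cells. In PKCθ KO N4 10 of 33 genes passed (30.3%, against 40.6% of all genes by limma), 7 higher (16.5% of all genes) and 3 lower (24% of all genes). The higher ones were Idi1 (0.78), Lss (0.76), Cyp51 (0.75), Sc5d (0.69), Scap (0.45), Stard4 (1.39) and Acaca (0.70). Among them Lss, Sc5d and Acaca no longer passed when probe sets were averaged, and Scap when only the arrays of the 2 groups were fitted. The count was 6 without WT non-pulsed replicate 1, and without PKCθ KO N4 replicate 1 it was 8, of which 2 were higher and 6 lower. In p50 cRel DKO N4 13 of 33 passed (39.4%, against 39.3% of all genes), 10 higher (16.5% of all genes) and 3 lower (22.8%). The higher ones were Hmgcs1 (0.63), Idi1 (0.99), Fdps (0.85), Lss (1.02), Cyp51 (1.09), Sc5d (0.99), Scap (0.67), Stard4 (1.36), Acaca (1.17) and Fasn (1.07). Of these, Lss, Sc5d, Acaca and Hmgcs1 no longer passed when probe sets were averaged. Hmgcs1, Fdps and Fasn did not pass in the fit without the trend, and Hmgcs1 also failed without the filter and after quantile or median scaling. Stard4 stood at 10.55 and 10.57 in PKCθ KO N4 and 10.31 and 10.75 in p50 cRel DKO N4, overlapping WT N4.

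Scd2 was called against WT non-pulsed in WT N4 and not in either knockout: it differed by 0.56 in PKCθ KO N4 (SE 0.23, limma adjusted p = 0.0811) and by 0.31 in p50 cRel DKO N4 (SE 0.23, limma adjusted p = 0.315). The tests of the differences themselves are those against WT N4, and they did not pass. Scd1 (-3.83 and -3.95), Abca1 (-3.41 and -3.85) and Abcg1 (-1.91 and -2.07) were lower in both knockouts with N4, with Scd1 in PKCθ KO N4 at -4.77 without replicate 1 and -2.89 without replicate 2. Abca1 read 8.50 and 7.59 in PKCθ KO N4 and 7.56 and 7.64 in p50 cRel DKO N4, with WT N4 at 7.82 and 7.61. Among the neighbouring pathways, 0 of the genes on the 4 lists passed in PKCθ KO N4 against WT N4. In p50 cRel DKO N4 Acsl6 fell to 7.08 and 7.35, a difference of -2.47 (SE 0.22, limma adjusted p = 0.00253), and Cd36 fell from 8.69 and 8.55 to 6.90 and 6.83 (-1.75, SE 0.21, limma adjusted p = 0.0106). In PKCθ KO N4 Cd36 read 7.41 and 7.43, also below WT N4 (-1.20, SE 0.21), but did not pass (limma adjusted p = 0.276). Macrophages express Cd36 too. Dendritic cell and macrophage markers summed to 18949 and 7692 in WT N4 and to 10007 and 9793 in p50 cRel DKO N4. The part of such cells in the Cd36 differences was not tested. Acsl6 was also lower than in PKCθ KO N4, where it read 9.63 and 9.42 (-2.31, limma adjusted p = 0.00624). So the lipid gene whose level with N4 differed between genotypes past the test in both comparisons was a fatty acid ligase outside the 34 genes.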

How the data were processed

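RNA of 8 samples (100 ng each) was read on 8 one-colour Affymetrix mouse arrays, 2 in each of 4 groups taken from the sample titles; a title with no replicate number was taken as number 1. The authors deposited intensity values, 1 linear signal per probe set. Per the submitters' processing notes the tools were GCOS 1.4 and MAS5, and every array has a 2% trimmed mean of 500. Of 45101 probe sets, 64 controls were left out. The platform annotation named 34945 by 1 gene symbol, 932 had several symbols and 9160 none, and 34741 symbols were brought up to date through Entrez identifiers (RefSeq, GRCm38.p6).

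Values were taken as log2(signal + 16). Probe sets under the 40th percentile of the mean (5.38) were left out, the brightest probe set of a gene was kept, and 12520 genes were tested with limma 3.58.1 in R 4.3.3 (lmFit, eBayes with trend, 1 coefficient per group, 4 residual degrees of freedom, no block), with Benjamini-Hochberg adjustment over all genes. The procedure was run on simulated data with independent noise on each array and few changed genes. The arrays here had deviations shared between same-numbered arrays and many changed genes, so that run does not vouch for these p-values. The number of arrays limits the precision. The 34 genes, the other lists and the motifs were chosen with earlier results of these data known. Genes were named by a rule: every one of the 34 is accounted for, those past the test and the 5 lowest p-values of a comparison without enough calls in full, and up to 4 genes in each direction from the other lists. Some further genes of the other lists, such as Mbtps1, are named where they limit a statement. Alternatives were other pseudocounts (1 and 64), filters, scalings, probe set rules, fits and arrays left out.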

Additional observations from a re-analysis of the deposited data

How the results depend on the processing

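Of the 13 genes of the 34 that changed with N4 in wild-type cells, Idi1, Lss, Cyp51, Scap, Stard4, Scd1, Scd2, Abca1 and Abcg1 passed under all 18 alternatives, and the other 4 have their exceptions in the text (Fdft1, Fdps, Sc5d and Acaca). Over gene and alternative, 220 of 234 values passed in the same direction, 14 no longer passed, 0 reversed, and 24 values of other genes newly passed. With 1 array left out the count was 11 to 17 (all genes 3551 to 5174); it was 6 to 13 in PKCθ KO N4 against WT non-pulsed (3699 to 5048) and 10 to 14 in p50 cRel DKO N4 against WT non-pulsed (3245 to 5040). Between genotypes with N4, 0 of the 33 genes passed under every alternative run. Over all genes those counts were less stable. PKCθ KO N4 against WT N4 had 3, and 1 with a pseudocount of 1, without the filter or after quantile normalization, 0 without the trend, and 0 to 5 with 1 array left out. p50 cRel DKO N4 against WT N4 had 65, and 36 after median centring, 35 without the trend and 13 to 75 with 1 array left out. The knockouts against each other had 54, and 28 without the filter, 17 without the trend, 98 from their own 4 arrays and 0 to 65 with 1 array left out.

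The labels number replicate 2 only. With the number as a replicate block, 21 of the 33 genes (63.6%) changed with N4 in wild-type cells (17 higher, 4 lower), beside 51.1% of all genes (22.5% higher, 28.6% lower). In the same fit 15 (45.5%, beside 51.2% of all genes) passed in PKCθ KO N4 against WT non-pulsed, 20 (60.6%, beside 50.4%) in p50 cRel DKO N4 against WT non-pulsed, and 0 between genotypes, where all-gene counts became 200 for p50 cRel DKO N4 against WT N4 and 152 between the knockouts. Deviations of arrays with the same number correlated across genes at 0.25 to 0.58 over the 6 pairs of groups, but with 2 numbers a group this is a hint and not a stated pairing. The causes of these shifts were not tested.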
